A study of Arabidopsis thaliana with 18 samples.

Results

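The genes described are 10 heat shock genes of Arabidopsis thaliana, namely HSP90.1, HSP101, HSP70, the heat shock factor HSFA2 and the 6 small heat shock protein genes HSP17.6II, HSP17.6A, HSP18.2, HSP17.4, HSP21 and HSP23.6. They were chosen by gene identifier as classical heat-inducible genes, out of 33331 genes in the expression table. The rule used no measured value, but the choice was made with earlier results of these data known. The series holds 18 RNA-seq samples, 3 for each of 3 lines at 2 times: AtGRP7-ox, which carries elevated levels of the RNA-binding protein AtGRP7, grp7-1 8i, an AtGRP7 T-DNA mutant with an RNAi construct against AtGRP8, and the wild type Col-2 (wt). Only the 6 wt libraries are described, because the names of the other 12 columns match no sample's labels, and the 2 altered lines were not analysed here. Plants harvested at subjective dusk, after 36 h in continuous light (LL36), are set against plants harvested at subjective dawn, after 24 h in continuous light (LL24). Both groups had been entrained for 16 days in cycles of 12 h light and 12 h dark, carried no transgene, received no heat treatment, and were collected as aerial tissue with several plants bulked per replicate.

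Heat shock proteins are chaperones: HSP90 matures client proteins, HSP70 binds unfolded stretches, HSP101 pulls proteins out of aggregates, and small heat shock proteins hold unfolding proteins until the other chaperones act. In plants the class A1 heat shock factors, held inactive without stress, switch on these genes in heat by binding heat shock elements, which are alternating GAA and TTC units in the promoter. HSFA2 is itself one of their targets and prolongs the response, and most of these genes have close relatives that are expressed without stress.

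Expression was measured in TPM, a transcript's share of its library corrected for transcript length, so that levels can be compared between genes. A library's TPM add up to a fixed total, the read depth behind a value cannot be read from TPM, and no counting interval was derived. The libraries summed to 990489 to 992864 TPM, and 18523 to 18935 genes were above 1 TPM in each. The Pearson correlation over log2 values of genes was 0.976 to 0.984 between libraries of the same time and 0.935 to 0.943 between times. The morning genes CCA1 and LHY were lower at LL36 and AtGRP7, AtGRP8, TOC1 and GI were higher,, each by the limma test described below. Genes that mark green tissue lay between 198 and 27180 TPM. The root marker PYK10 was not low, at 195 to 214 TPM, near the lowest green tissue value. The other root marker genes summed to 1.43 to 3.58 TPM at LL36 and 1.10 to 8.67 TPM at LL24. In such bulk tissue, fewer cells of a type and less RNA per cell cannot be told apart.

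All 10 genes were expressed at a low level in the 6 wt libraries. The median over the 6 libraries was 6.28 TPM for HSP70, 4.23 TPM for HSP90.1, 4.04 TPM for HSP18.2 and 3.41 TPM for HSP101, then 1.602 TPM for HSP17.4, 1.25 TPM for HSFA2, 0.960 TPM for HSP17.6A, 0.640 TPM for HSP17.6II, 0.425 TPM for HSP21 and 0.0542 TPM for HSP23.6. Neighbours in this order overlapped over their libraries, except that HSP101 lay wholly above HSP17.4 and HSP21 wholly above HSP23.6. Of the 10 genes, 9 stayed below 10 TPM in every library, while the median gene among the 19303 tested genes averaged 12.1 TPM. Summed over all 10, the genes made up 23.2 ± 2.89 TPM at LL36, against 26.8 ± 8.64 TPM at LL24 (SD, n = 3 each). The sums overlapped, and the highest, 36.7 TPM, came from LL24 replicate 1, the library in which HSP70 was highest.

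**Figure D1:**
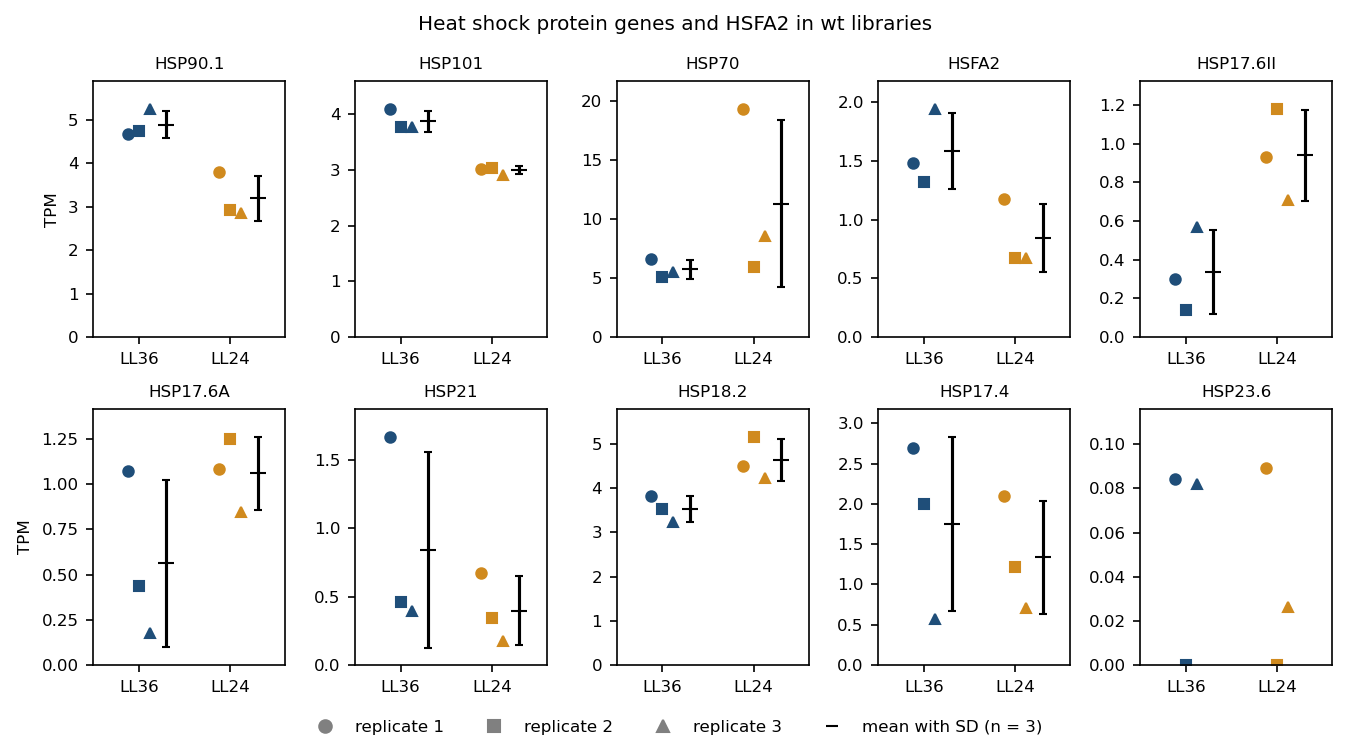
TPM (linear axis from 0, its own scale in each panel) of the 10 genes in wt libraries at LL36 and at LL24, with symbols for replicates 1 to 3 and a bar for the mean with SD (n = 3), left out for HSP23.6. HSP90.1, HSP101 and HSFA2 lie higher at LL36 without overlap, HSP18.2 and HSP17.6II lie lower, and HSP70 shows 1 LL24 library at 19.4 TPM.

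The upstream bases were read from TAIR10.1, the reference with its RefSeq gene models, to look for heat shock elements, which heat shock factors bind. A match was counted where GAANNTTC or TTCNNGAA (2 units) occurred on either strand in the 300 bases before the annotated gene start, and a triple where 1 more alternating unit followed, so that each triple also holds 2 overlapping matches of 2 units. Of the 10 genes, 5 had a match and 3 of these had a triple, and among 27443 nuclear protein-coding genes 19.3% had a match and 0.485% a triple. Of the 72 other heat shock genes described below, a match occurred in 4 of 20 heat shock factors, 4 of 11 small heat shock proteins, 4 of 17 HSP70s, none of 6 HSP90s, 1 of 2 CLPB genes and 8 of 16 co-chaperones and partners. A triple occurred in 2 of these heat shock factors, 1 of these small heat shock proteins and 2 of these co-chaperones and partners. The HSP70s, HSP90s and CLPB genes held no triple. Of 13 genes of the rapid response to touch, cold and wounding, 5 had a match. The evening element AAAATATCT, which clock-regulated genes often carry, occurred on either strand in 2.79% of all these windows and in none of the 10. A match is a description of letters, and binding was not measured. Distances are from the start of the gene model, and transcription starts were not measured. The HSP90.1 window ends in atggcggatgttcag, which opens with a start codon, so its annotated start may lie within coding sequence. Its window may thus not be comparable with the others, and its stretch is cut at the window's far edge. The stretches that hold the matches are shown 5′ to 3′ in the direction of the gene, with the heat shock elements in capitals, because they show how different the arrangement is from gene to gene. The stretch of HSFA2 lies at chr2:11135528-11135606 (+), 96 to 18 bases before the start; that of HSP17.4 at chr3:16984868-16984974 (-), 107 to 1 bases before; that of HSP21 at chr4:13820056-13820079 (-), 108 to 85 bases before; that of HSP17.6A at chr5:3884845-3884868 (-), 30 to 7 bases before; and that of HSP90.1 at chr5:21352257-21352282 (+), 300 to 275 bases before, inside an exon of the neighbouring gene AT5G52630.
HSFA2: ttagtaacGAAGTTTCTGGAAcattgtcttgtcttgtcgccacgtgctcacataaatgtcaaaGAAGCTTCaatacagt
HSP17.4: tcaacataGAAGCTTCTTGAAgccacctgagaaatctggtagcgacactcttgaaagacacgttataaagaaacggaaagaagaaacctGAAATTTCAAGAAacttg
HSP21: cgagtcgaGAAACTTCgtatcaaa
HSP17.6A: caagacgtTTCTCGAAcgttagag
HSP90.1: gaaaaGAACTTTCTGGAAttcgtttg

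**Figure D2:**
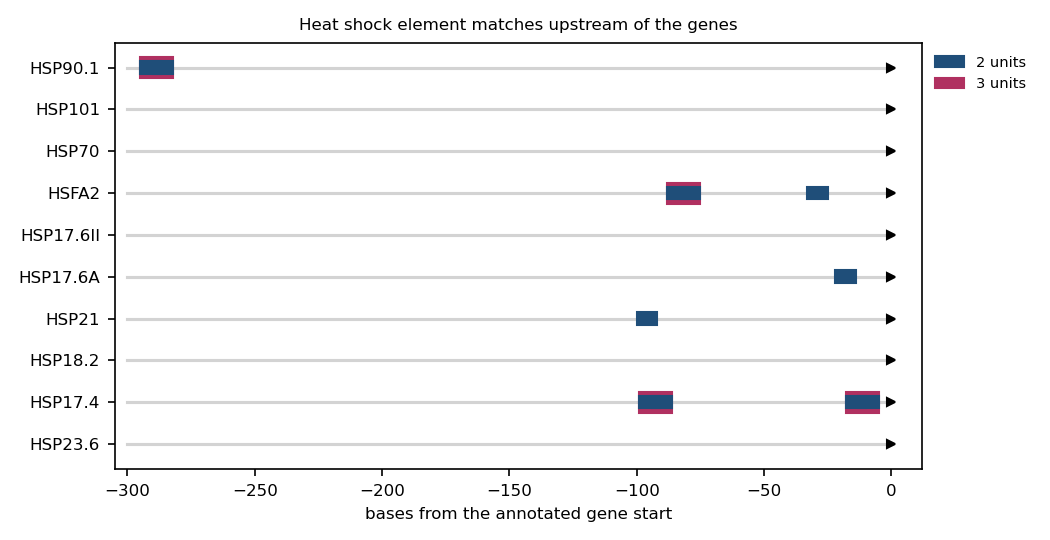
Heat shock element matches in the 300 bases before the annotated start of each gene, drawn to scale in bases from the start, with wide bars for triples of 3 units and narrow bars for matches of 2 units. HSP17.4 carries 2 triples, HSFA2 and HSP90.1 carry 1 each, HSP17.6A and HSP21 carry a match of 2 units, and the other 5 genes show no match in this window. The annotated start of HSP90.1 may lie within coding sequence.

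The comparison of LL36 with LL24 asks whether these genes differed with time of day in continuous light. It was tested with limma on log2(TPM + 0.5) over all 19303 genes with a mean above 1 TPM at either time, and a gene is called where the Benjamini-Hochberg adjusted p is below 0.05. On this scale the change of low genes is understated. All genes together shifted by a median of 0.21 towards LL36, so each change is given as fitted and then relative to that shift. HSP17.6II, HSP21 and HSP23.6 were below the filter, and 7 genes were tested. Of these, 3 were called higher at LL36, where 41.2% of all tested genes were called higher, and 1 was called lower, where 11.2% of all tested genes were called lower. The 3 include HSFA2, which passed the filter only through LL36, where it was high. In 4 of the 7 the libraries of the 2 times did not overlap, and this held for 63.8% of all tested genes. The median change of the 7 was 0.23, or 0.01 relative to the shift, and the changes ranged from 0.64 to -0.76. These shares are near those of all genes.

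HSP90.1 (AT5G52640, chromosome 5, 21352557 to 21355147, plus strand, 4 exons) encodes the heat-inducible cytosolic HSP90. It had 4.67, 4.74 and 5.24 TPM at LL36, against 3.79, 2.93 and 2.86 TPM at LL24. All LL36 libraries were above all LL24 libraries. The means were 4.88 ± 0.315 TPM at LL36 and 3.19 ± 0.520 TPM at LL24 (SD, n = 3 each), a log2 change of 0.55 with a standard error of 0.12 (0.34 relative to the shift, limma adjusted p 0.00883). The call held when any one library was left out, with adjusted p of 0.00276 to 0.0347. When TPM were first rescaled so that the median gene hardly shifted, the change was 0.36 and the adjusted p 0.0589 with median-of-ratios factors, and 0.36 and 0.0562 with quantile normalization.

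HSP101 (AT1G74310, chromosome 1, 27936508 to 27940369, minus strand, 6 exons) encodes the cytosolic disaggregase needed for acquired thermotolerance. Its level was 4.10, 3.77 and 3.77 TPM at LL36, against 3.03, 3.04 and 2.91 TPM at LL24. The 2 times did not overlap, and the replicates lay closer together than those of any other tested gene of the 10, with a within-group SD of 0.0487 in log2 units. The log2 change was 0.33 with a standard error of 0.08 (0.11 relative to the shift, limma adjusted p 0.0140). It was not called under the 2 rescalings (log2 change 0.14, adjusted p 0.215 with median-of-ratios factors and 0.14, adjusted p 0.196 with quantile normalization) or without LL36 replicate 1 (adjusted p 0.0554).

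HSFA2 (AT2G26150, chromosome 2, 11135624 to 11137792, plus strand, 3 exons), the transcription factor that sustains the heat response, had 1.48, 1.32 and 1.94 TPM at LL36, against 1.18, 0.677 and 0.677 TPM at LL24. The lowest LL36 library was above the highest LL24 library, and the gene passed the filter only through LL36, so it had to be higher there to be tested. The change was 0.64 in log2 with a standard error of 0.21 (0.43 relative to the shift, limma adjusted p 0.0388). It lost the call under median-of-ratios and quantile scaling (adjusted p 0.118 and 0.112), and when any library other than LL24 replicate 1 was left out (adjusted p 0.0573 to 0.122).

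HSP70 (AT3G12580, chromosome 3, 3991117 to 3993886, minus strand, 2 exons), a heat-induced cytosolic HSP70, had 6.60, 5.07 and 5.55 TPM at LL36, against 19.4, 5.96 and 8.61 TPM at LL24. LL24 replicate 1 stood far above the other libraries, and the 2 times overlapped. The log2 change of -0.76 with a standard error of 0.39 (-0.97 relative to the shift) was not called (limma adjusted p 0.139). Without LL24 replicate 1 it was -0.305 with an adjusted p of 0.200, and without LL24 replicate 2 it was -1.12 with an adjusted p of 0.0392, so the value rests on which LL24 library is kept.

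Among the small heat shock proteins, HSP18.2 (AT5G59720, chromosome 5, 24062323 to 24063300, plus strand, 1 exon), a cytosolic class I protein, was the only one of the 10 called lower. It had 3.83, 3.53 and 3.24 TPM at LL36, against 4.51, 5.17 and 4.24 TPM at LL24. All LL36 libraries were below all LL24 libraries, with a log2 change of -0.35 and a standard error of 0.10 (-0.56 relative to the shift, limma adjusted p 0.0273). It was the only one of the 10 called both on TPM as deposited and under the 2 rescalings (log2 change -0.54, adjusted p 0.00650 with median-of-ratios factors and -0.54, adjusted p 0.00640 with quantile normalization). The call was lost without LL24 replicate 2, LL36 replicate 2 or LL36 replicate 3 (adjusted p 0.0744, 0.0721 and 0.0862). HSP18.2 made up 39.7, 53.9 and 64.3% of the summed small heat shock protein TPM of the 10 genes at LL36. At LL24 it made up 48.1, 56.5 and 63.2%. These shares overlapped between the times (two-sided exact permutation test p = 0.7, adjusted over 4 shares 0.8).

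HSP17.6II (AT5G12020) and HSP17.6A (AT5G12030), both cytosolic class II proteins, lie 845 bases apart on the minus strand of chromosome 5, at 3882231 to 3883111 and at 3883957 to 3884838. HSP17.6II had 0.298, 0.138 and 0.570 TPM at LL36, against 0.931, 1.18 and 0.711 TPM at LL24. Its LL36 libraries were all below its LL24 libraries, and it was fitted where the filter was dropped, with a log2 change of -0.81, a standard error of 0.22 and a limma adjusted p of 0.0328. It also passed the filter without LL24 replicate 3, where the change was -0.924 and was not called (limma adjusted p 0.0556). HSP17.6A had 1.07, 0.436 and 0.176 TPM at LL36, against 1.08, 1.25 and 0.847 TPM at LL24. It passed the filter only through LL24, the times overlapped through LL36 replicate 1, and the log2 change of -0.64 with a standard error of 0.33 was not called (limma adjusted p 0.146), although without LL36 replicate 1 it was -0.964 with an adjusted p of 0.0312. Without LL36 replicate 3 it was -0.354 with an adjusted p of 0.352.

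HSP17.4 (AT3G46230, chromosome 3, 16984118 to 16984867, minus strand, 1 exon), a cytosolic class I protein, had 2.70, 2.00 and 0.576 TPM at LL36, against 2.09, 1.21 and 0.707 TPM at LL24. The libraries overlapped, with replicate 1 highest and replicate 3 lowest at both times, and the log2 change of 0.23 with a standard error of 0.46 (0.01 relative to the shift) was not called (limma adjusted p 0.699). Of its 100-base windows, 56.6% are shared with an antisense gene, AT3G07365, which was not analysed here. Its exon also overlaps the opposite-strand gene AT3G46220, at 7.69, 7.73 and 7.94 TPM at LL36, against 5.62, 5.42 and 5.70 TPM at LL24. The library kit does not mark strand, so reads of these genes cannot be told apart from those of HSP17.4 and its value is uncertain. None of the other 9 genes shared more than 0.1% of its windows with another gene. That 0.1% belongs to HSP101, whose exons overlap the opposite-strand gene AT1G74300. This gene had 6.59, 5.18 and 5.21 TPM at LL36, against 6.66, 6.71 and 6.91 TPM at LL24, above HSP101 in every library.

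The 2 organelle proteins had the lowest medians over the 6 libraries, although at LL36 HSP21 averaged 0.839 TPM, above HSP17.6A at 0.562 TPM and HSP17.6II at 0.336 TPM. HSP21 (AT4G27670, chromosome 4, 13818825 to 13819971, minus strand, 2 exons), the chloroplast small heat shock protein, had 1.67, 0.457 and 0.392 TPM at LL36, against 0.675, 0.340 and 0.178 TPM at LL24. Replicate 1 was highest at both times and the times overlapped, and without the filter the limma adjusted p was 0.393. HSP23.6 (AT4G25200, chromosome 4, 12916926 to 12918110, plus strand, 2 exons), the mitochondrial one, was listed at 0.0844, 0 and 0.0820 TPM at LL36, against 0.0895, 0 and 0.0264 TPM at LL24. It was at or near 0 in every library, and no fold change is given.

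The other heat shock genes were taken from lists of 20 heat shock factors, 11 small heat shock proteins, 17 HSP70s, 6 HSP90s, 2 CLPB proteins and 16 co-chaperones and heat-induced partners, 72 genes of which 63 were tested. Of these, 30 were called higher at LL36 (47.6% of the tested genes, against 41.2% of all genes) and 5 were called lower (7.94%, against 11.2%). Their median change was 0.07 relative to the shift. Under the 2 rescalings the counts were 18 higher and 9 lower with median-of-ratios factors, and 19 higher and 8 lower with quantile normalization.

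In the HSP90 list all 6 genes were called higher at LL36, where 41.2% of all genes were, with a median of 0.43 relative to the shift. Of the 6, 5 remained called under both rescalings, and the difference between this list and the 10 genes was not tested. HSP90.7 (AT4G24190), the endoplasmic reticulum form, rose by 0.63 relative to the shift, with 190.1 ± 14.1 TPM at LL36, against 106.5 ± 13.9 TPM at LL24 (SD, n = 3 each, limma adjusted p 0.00113). Among the constitutive cytosolic forms HSP90.3 (AT5G56010) rose by 0.51 and HSP90.2 (AT5G56030) by 0.45 relative to the shift, and the chloroplast form HSP90.5 (AT2G04030) by 0.41. HSP90.2, HSP90.3 and HSP90.4 share some 100-base windows (10.8% for HSP90.3), and their individual levels are uncertain to that extent. The sum of the cytosolic HSP90 genes was 354.5, 374.4 and 352.7 TPM at LL36, against 242.9, 242.3 and 193.2 TPM at LL24. HSP90.1 made up 1.32, 1.27 and 1.49% of it at LL36, against 1.56, 1.21 and 1.48% at LL24. The shares overlapped, and their difference was not larger than the spread between replicates (two-sided exact permutation test, p = 0.8, adjusted over 4 shares 0.8). With 3 libraries against 3 the smallest exact p is 0.1.

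Of the 16 tested HSP70 genes outside the 10, 10 were called higher at LL36 (62.5%, against 41.2% of all genes). With median-of-ratios factors 5 were called higher and 1 lower, and with quantile normalization 6 were called higher. BIP1 (AT5G28540) and BIP2 (AT5G42020), chaperones of the endoplasmic reticulum, rose by 0.64 and 0.62 relative to the shift, and HSC70-3 (AT3G09440), a constitutive cytosolic HSP70, rose by 0.62. BIP3 (AT1G09080), the inducible form, rose by 0.50 but lost its call under both rescalings (adjusted p 0.0874 and 0.0780). Its call was also lost with a replicate block (limma adjusted p 0.0525). The same held when any library other than LL36 replicate 2 was left out (limma adjusted p 0.0533 to 0.0731). HSC70-3 shares 12.7% of its windows with an antisense gene, AT3G09430, and BIP1 and BIP2 share 8.7% and 8.4% with each other. HSP70 (AT3G12580) made up 0.689, 0.540 and 0.598% of the cytosolic HSP70 sum at LL36, against 2.64, 0.922 and 1.52% at LL24. The shares of the 2 times did not overlap (two-sided exact permutation test p = 0.1, the smallest possible, adjusted over 4 shares 0.2). Such a share does not depend on the scaling between libraries, but it does depend on the sum. That sum was 957.2, 939.8 and 927.3 TPM at LL36, against 734.1, 646.3 and 568.3 TPM at LL24. The TPM of HSP70 itself overlapped between the times.

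**Figure D3:**
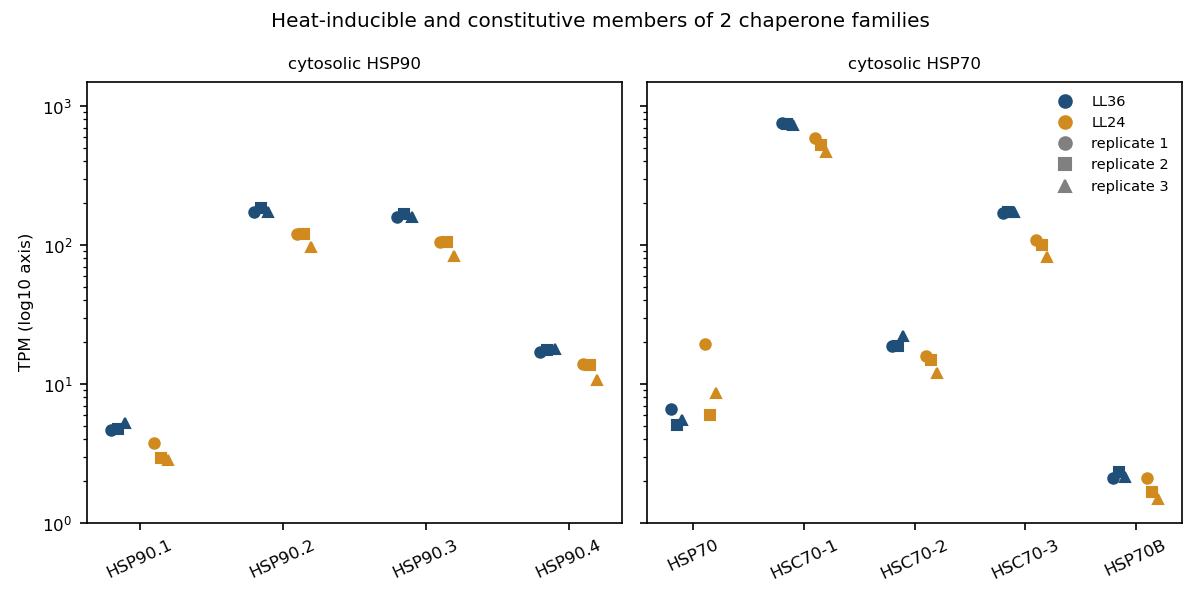
TPM on a log10 axis of each cytosolic HSP90 gene (left) and cytosolic HSP70 gene (right) in wt libraries at LL36 and at LL24, with a symbol for each replicate. The inducible HSP90.1 lies between 2.86 and 5.24 TPM, and HSC70-1, the highest gene of the HSP70 panel, between 464.3 and 759.9 TPM, while HSP70 is the only gene with its LL24 libraries mostly above its LL36 libraries.

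Of the 16 tested heat shock factors outside HSFA2, 5 were called higher at LL36 (31.2%, against 41.2% of all genes) and 1 lower (6.25%, against 11.2%). The balance turned under each of the 2 rescalings, with 3 higher and 4 lower. HSFA8 (AT1G67970) had 13.8, 12.1 and 14.9 TPM at LL36, against 3.24, 2.39 and 2.72 TPM at LL24. The groups did not overlap, and its log2 change of 1.89 relative to the shift, with a standard error of 0.12 (limma adjusted p 4.2e-05) was more than that of any other gene of these lists. HSFA3 (AT5G03720), a factor induced by DREB2A, rose by 0.63 relative to the shift and HSFA1B (AT5G16820), one of the class A1 factors, by 0.59, and both remained called under the 2 rescalings. HSFA4A (AT4G18880) rose by 0.24 relative to the shift and lost its call under both rescalings (adjusted p 0.0995 and 0.0981). HSFB2A (AT5G62020), a repressor-type factor, fell by 1.10 relative to the shift, with 4.48 ± 1.46 TPM at LL36, against 8.48 ± 0.584 TPM at LL24 (SD, n = 3 each, limma adjusted p 0.00997). HSFA2 made up 1.17, 1.09 and 1.54% of the summed heat shock factor TPM at LL36, against 1.05, 0.7002 and 0.655% at LL24. The shares did not overlap (two-sided exact permutation test p = 0.1, adjusted 0.2).

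Of the 8 tested other small heat shock proteins, 3 were called higher at LL36 (37.5%, against 41.2% of all genes) and 2 lower (25%, against 11.2%). HSP18.5 (AT2G19310) had 95.9, 88.1 and 93.8 TPM at LL36, against 51.3, 40.9 and 40.6 TPM at LL24. HSP15.4 (AT4G21870) moved the other way, with 23.4, 26.8 and 26.7 TPM at LL36, against 52.5, 47.8 and 61.3 TPM at LL24. Neither gene overlapped between times, and the log2 changes were 0.85 and -1.26 relative to the shift (limma adjusted p 0.000349 and 0.000439). HSP15.7 (AT5G37670), a peroxisomal form, and HSP17.6B-CI (AT2G29500) rose by 0.55 and 0.51 relative to the shift. HSP21.7 (AT5G54660) fell by 0.54 relative to the shift, with libraries that overlapped (limma adjusted p 0.0441). Its call was lost without the filter (adjusted p 0.0696), without the mean-variance trend (0.0534) and without any one of LL24 replicates 2 and 3 and LL36 replicates 1 and 3 (0.110 to 0.127).

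CLPB3 (AT5G15450), the chloroplast relative of HSP101, had 25.4, 24.8 and 24.2 TPM at LL36, against 75.4, 63.8 and 59.99 TPM at LL24. Its LL36 libraries were far below its LL24 libraries, opposite in direction to HSP101, with a log2 change of -1.40 and a standard error of 0.09 (limma adjusted p 6.6e-05). Among the co-chaperones and partners, BAG6 (AT2G46240), a calmodulin-binding co-chaperone, had 2.56, 2.56 and 2.46 TPM at LL36, against 0.807, 0.948 and 0.835 TPM at LL24, and rose by 0.94 relative to the shift. It passed the filter only through LL36, and without the filter it was also called (limma adjusted p 0.000306). HOP1 (AT1G12270), an HSP70-HSP90 organizing protein, rose by 0.27, the immunophilin ROF2 (AT5G48570) by 0.22 and FES1A (AT3G09350), which binds HSP70, by 0.14 relative to the shift. ROF2 and FES1A lost their calls under both rescalings. GOLS1 (AT2G47180), a galactinol synthase and HSFA2 target, fell by 1.07 relative to the shift.

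**Figure D4:**
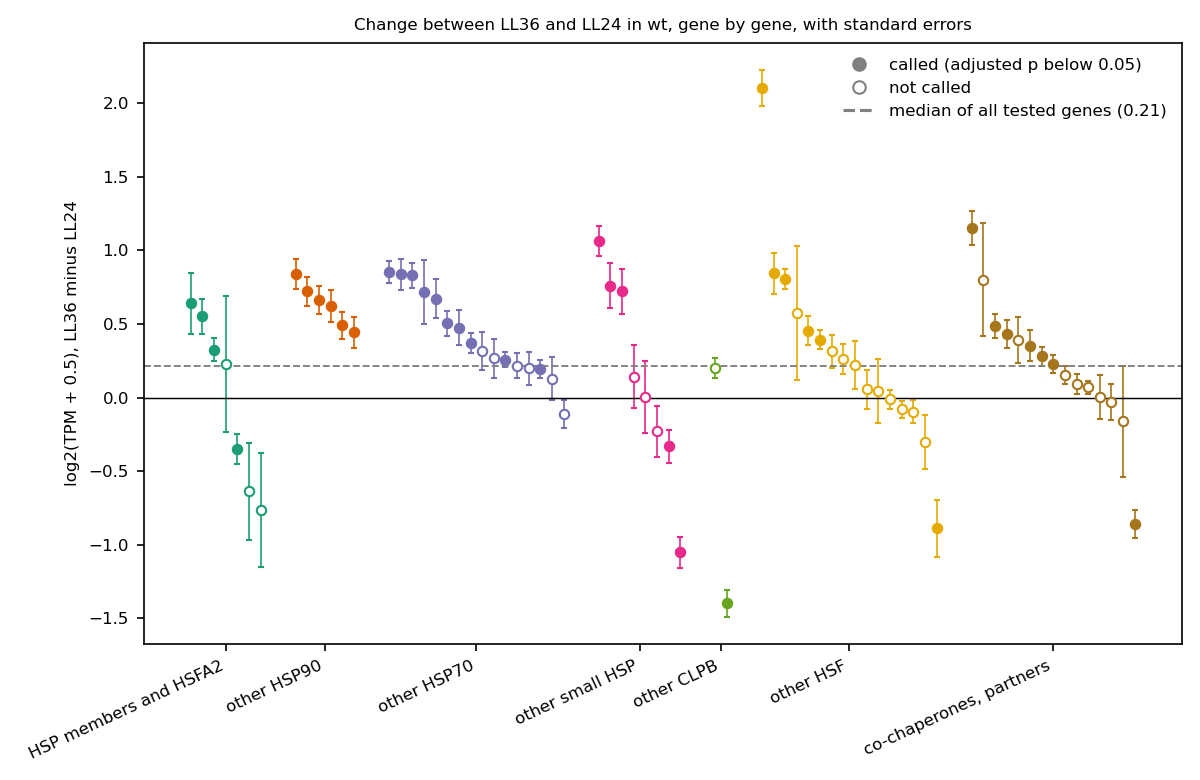
Fitted log2 change (LL36 minus LL24, log2(TPM + 0.5)) with standard error for each tested gene of the heat shock lists, filled where called and open where not, with the median of all tested genes at 0.21 as a dashed line. The 10-gene set straddles that line, from HSFA2 at 0.64 to HSP70 at -0.76, the HSP90 list lies wholly above it, and CLPB3 at -1.40 and HSFA8 at 2.1 are the extremes.

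The replicates of the 10 genes were uneven, and replicate 1 was often the highest. It was highest for 7 of the 10 genes at LL36 and for 6 of the 10 at LL24, while it was highest for 32.1% and 30.9% of all tested genes. Both counts include HSP21 and HSP23.6, which were below the filter, and HSP23.6 was at or near 0 in every library. Among the other heat shock genes above 0 TPM, it was highest for 5 of 11 small heat shock proteins at LL36 and 7 of 11 at LL24. For co-chaperones and partners it was 4 of 16 and 10 of 16, and for heat shock factors 4 of 19 and 9 of 19. For HSP70s it was 5 of 16 and 6 of 16, for HSP90s 1 of 6 and 2 of 6, and for CLPB genes 1 of 2 and 2 of 2. At LL24 the ratio of replicate 1 to the mean of replicates 2 and 3 was 2.66 for HSP70, 2.61 for HSP21, 2.18 for HSP17.4 and 1.74 for HSFA2, and it was 0.959 to 1.03 for HSP18.2, HSP17.6II, HSP17.6A and HSP101. At LL36 the ratio was 3.93 for HSP21, 3.51 for HSP17.6A and 2.1 for HSP17.4, but 0.906 for HSFA2. HSP21 and HSP17.4 were thus high in replicate 1 at both times, HSP70 more so at LL24, HSFA2 only at LL24, and HSP17.6A only at LL36. The within-group SD in log2 units was 0.701 for HSP17.4, 0.60 for HSP70 and 0.455 for HSP17.6A, where the median of all tested genes was 0.111.

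Other genes varied with the same libraries. Root marker genes were highest in replicate 1 for 5 of 6 at LL36 and 6 of 6 at LL24. Of these, COBL9, EXPA7 and EXPA18 lay within 0 to 0.616 TPM, so their ranks and ratios rest on values near 0. IRT1, the iron transporter of the root epidermis, had 0.949, 0.113 and 0.122 TPM at LL36, against 4.72, 1.75 and 0.576 TPM at LL24, and PYK10, high in below-ground parts, stayed within 195 to 214 TPM. The summed root markers without PYK10 were 3.58, 1.43 and 2.04 TPM at LL36, against 8.67, 3.40 and 1.10 TPM at LL24. Genes of the rapid response to touch, cold and wounding went another way, being highest in replicate 3 for 11 of 13 at LL36 and 10 of 13 at LL24, with sums of 285, 300 and 502 TPM at LL36, against 443, 556 and 654 TPM at LL24. DREB2A (AT5G05410), an activator of HSFA3 named after its values were seen, had 4.52, 4.40 and 4.998 TPM at LL36, against 5.19, 1.41 and 1.86 TPM at LL24. Its LL24 replicate 1 was as high as the LL36 libraries. The part of these library differences in the heat shock results was not tested.

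**Figure D5:**
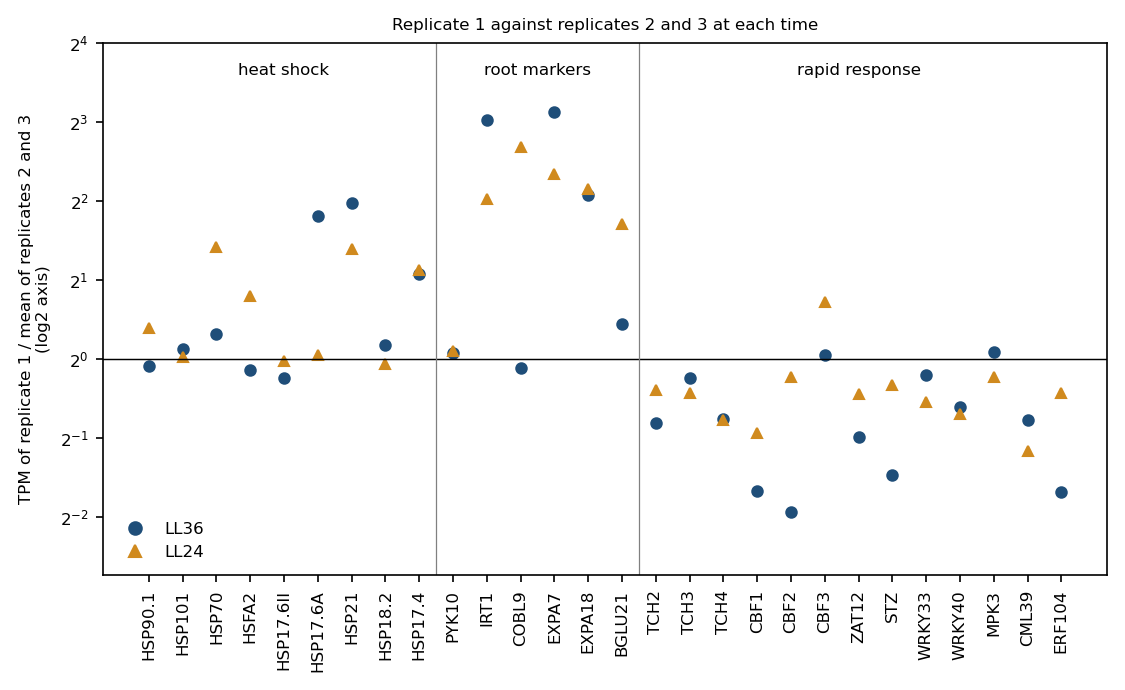
Ratio of the TPM in replicate 1 to the mean of replicates 2 and 3 (log2 axis) at LL36 (circles) and LL24 (triangles), for 9 of the heat shock genes (HSP23.6 left out), the root markers and the rapid response genes. HSP21 and HSP17.4 lie above 2 at both times, HSP70 at 2.66 in LL24, most root markers lie well above 1, and most rapid response genes lie below 1.

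The 5 genes outside all lists whose log2 levels were most like those of the 7 tested genes, by mean Pearson r over 6 libraries that fall into 2 times, were FRU (AT2G28160, 0.406), AT2G18360 (0.404), DR4 (AT1G73330, 0.402), CYP707A1 (AT4G19230, 0.400) and AT1G07728 (0.400). FRU, a regulator of iron uptake, had 2.17, 1.49 and 1.36 TPM at LL36, against 1.87, 1.26 and 1.14 TPM at LL24. DR4 had 70.7, 53.1 and 51.2 TPM at LL36, against 69.8, 48.3 and 46.1 TPM at LL24. Each of the 5 was highest in replicate 1 at both times and none was called between times. Both traits can follow from the choice of these 5, because the 7 tested genes changed with time in both directions. They are thus no separate observation. Among the 7 tested genes themselves the mean r to the other 6 ranged from -0.17 for HSP18.2 to 0.26 for HSP17.4.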

How the data were processed

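Polyadenylated RNA of wt plants was sequenced from 3 biological replicates per time. Per the labels and the study's methods, the first read of each pair was trimmed with Sickle, mapped with STAR 2.5.2a to the atRTD transcriptome of TAIR10 and quantified with Salmon 0.8.2 and tximport. The authors left out rRNA, mitochondrial and chloroplast genes and deposited 1 table of TPM per gene. The study tested lines with edgeR on counts, which TPM do not allow. Depth cannot be read from TPM, and the study's read statistics were not used here.

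Of the table's columns of samples, 6 were used and 12 were not, since no label names them, so the planned comparisons between lines and the fit over all 18 libraries were not made. With R 4.3.3 and limma 3.58.1, log2(TPM + 0.5) was fitted over the 19303 genes with a mean above 1 TPM at either time (eBayes with trend, two-sided, Benjamini-Hochberg adjustment over all of them, threshold 0.05), and the script was tested on simulated data. Alternatives were pseudocounts of 0.1 and 1, no filter, a minimum of 5 TPM, median-of-ratios and quantile scaling, no trend, a replicate block and leaving out each library. The windows before gene starts and the gene models came from the TAIR10.1 RefSeq annotation. Named genes were all 10, up to 4 called genes per list and direction with the largest change, and the 5 genes most like the 10; the genes that share their sequence are named as well. The members and lists were chosen with earlier results of these data known.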

Additional observations from a re-analysis of the deposited data

How the results depend on the processing

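Over all tested genes, 10107 were called, 78.6% of them higher at LL36. Median-of-ratios scaling called 6602 (47.0% higher) and quantile normalization 6632 (54.4% higher), and leaving out single libraries gave 7741 to 9571. Of the 10 genes, 4 were called. Median-of-ratios scaling and quantile normalization each left 1, HSP18.2, called lower, and no gene called higher. At an unadjusted limma p below 0.05, 1 gene was higher under each. The genes lower at that level, HSP18.2 included, numbered 2 under the former and 3 under the latter. A minimum of 5 TPM left 1 gene to test, HSP70, and 0 calls (0 at an unadjusted limma p below 0.05), because fewer genes were tested. Leaving out single libraries gave 2 to 4 calls: 2 without LL36 replicate 2 or LL36 replicate 3, both higher; 3 without LL36 replicate 1, of which 1 was higher and 2 lower; and 3 without LL24 replicate 2 or LL24 replicate 3, of which 2 were higher and 1 lower. The log2 change of HSP17.4 ranged from -0.0947 (without LL36 replicate 1) to 0.691 and was also below 0, at -0.041, without LL24 replicate 3. Without the filter 5 of the 10 genes were called. For the 72 other heat shock genes, 35 calls became 27 to 40 over all alternatives.

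Replicate numbers are shared between the times. Deviations of same-numbered libraries correlated at 0.128, 0.148 and 0.0341, above those of every other number for all 6 libraries, but the last was under 0.1 and the labels tie the numbers to no batch, so they were not taken as pairs. With a replicate block, 9947 of all genes, 3 of the 10 genes and 34 of the other heat shock genes were called, and HSFA2 lost its call (adjusted p 0.0584).

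With 3 libraries per time and no read counts in the table, the counting error of genes near 1 TPM could not be given. Hours spent in continuous light and time of day cannot be told apart.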
